A study of Caenorhabditis elegans with 2 samples.

Results

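The outermost 100 kb at both ends of chromosomes II, III, IV, V and X of the nematode Caenorhabditis elegans were described by the small RNA that maps to them. They were chosen by position alone, as the first and the last 100 bins of 1 kb on each chromosome, which gave 1000 bins in 10 ends out of 100257 bins in all. Each end was set beside the next 100 kb inward, another 1000 bins. The series holds 2 small RNA libraries from young adult hermaphrodites, 1 of strain N2, the laboratory wild type, and 1 of RNA that came down with HRDE-1 (the coIP). For the coIP, an anti-FLAG resin captured FLAG-StrepII-HRDE-1 from ground worms, whose genotype the labels give only as HRDE-1-coIP. The text on preparation is identical for N2, so it is not stated whether that library is total small RNA or a mock pull-down. The cloning of both was independent of a monophosphate at the front of the RNA, so that triphosphate RNAs are taken up too.

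HRDE-1, a nuclear Argonaute of the germline, binds secondary small interfering RNAs that RNA-dependent RNA polymerases copy from target transcripts, and it directs silencing of transcription and histone H3 lysine 9 methylation at the matching genes over generations. In C. elegans, which has holocentric chromosomes, the telomeric repeats are flanked by chromosome arms that carry H3 lysine 9 methylation, many repeats and fewer essential genes than the chromosome centres. Small RNAs of subtelomeric sequence have therefore been of interest as possible guides of silencing near telomeres.

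Signal is given in parts per 1000000 of the library's own sum (ppm). The deposited coverage carries a floor of 0.1 in every bin, and subtracting it and dividing by the value of 1 read gave 3316 read equivalents in the ends in N2 and 17490 in the coIP, of 2161930 and 4832659 in all. Ratios of coIP over N2 use these floor-subtracted reads as shares of their library. Their 95% intervals are exact binomial ones and cover counting error only. With 1 library per group there was no replicate, no test and no p-value, so no difference below was set against a spread between animals. Positions are those of the file, whose genome build is not given in the sources used here. Genes are those annotated at the same position in WBcel235 (Ensembl annotation). At annotated microRNA genes the N2 coverage of all 5 chromosomes peaked without any shift, and in 9 of 10 ends the coIP coverage matched the annotated exons best at shift 0, among shifts of up to 10 kb. The right end of V matched best at a shift of -4 kb, and no gene is named there. The match was weakest at the left end of II, where the correlation of exon share and coverage was 0.15 at shift 0 against 0.11 at the best other shift, and the N2 coverage of the 6 small noncoding RNA genes in its outer 1 Mb peaked at -1 kb, so that names there may be off by 1 bin. The file holds no strand.

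The chromosome ends were poor in summed small RNA signal, but their median bin was not. They held 0.170% of the N2 signal and 0.370% of the coIP signal in 0.997% of the bins. The mean bin of the ends had 1.70 ppm in N2 and 3.70 ppm in the coIP, against 9.97 ppm for the mean bin of either library. The median end bin had 0.254 ppm in N2 and 0.532 ppm in the coIP, against 0.273 and 0.411 ppm over all bins. No read was found in 42.7% of the end bins in N2 and in 17.1% in the coIP, against 42.9% and 20.97% of all bins, and 135 of the 1000 bins had none in either. A bin without a read may still hold up to 3 reads at this depth, by counting error alone. The signal lay in few bins, since 30 bins held the upper 50% of it in N2 and 34 in the coIP.

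Among the ends the coIP level ran from 83.2 ppm to 979 ppm. X had 979 ppm at its left end, the right end of X 597 ppm and the left end of II 560 ppm. The right end of III followed with 483 ppm and the left end of V with 319 ppm. The other five were lower. The right end of V had 192 ppm, the left end of IV 179 ppm, the right end of II 158 ppm, the left end of III 147 ppm and the right end of IV 83.2 ppm. By their counting intervals alone, neighbours could not be separated between the right end of X and the left end of II, nor in the steps from the right end of V down to the left end of III. Below all others lay the right end of IV. In N2 the order was another one. Highest was again the left end of X with 312 ppm, but the right end of IV, lowest in the coIP, had 175 ppm, as much as the left end of V with 175 ppm. The right end of III had 216 ppm, the right end of X 215 ppm and the left end of II 190 ppm. The lowest were the left end of IV with 129 ppm, the left end of III with 120 ppm, the right end of V with 92.3 ppm and the right end of II with 75.4 ppm. Below the left end of X the counting intervals of neighbours in N2 overlapped, except between the left ends of V and IV and between the left end of III and the right end of V.

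**Figure D1:**
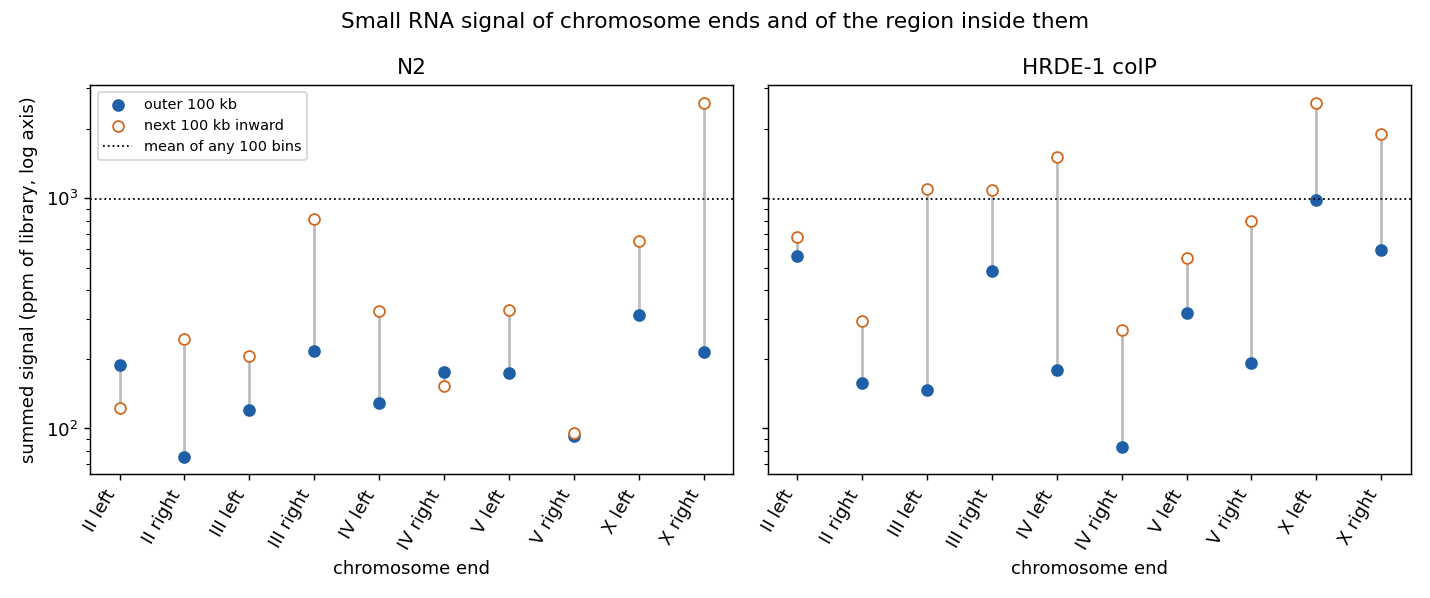
Summed signal in ppm of the library (log axis) of each outer 100 kb (filled) and of the next 100 kb inward (open), for N2 on the left and the coIP on the right; the dotted line is the mean of 100 bins. In the coIP every end lies below its inner neighbour, from 83.2 ppm at the right end of IV to 979 ppm at the left end of X; in N2 the left end of II and the right end of IV lie above theirs.

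Most ends also lay below the median of their own chromosomes, some of them only just. Cut into consecutive tiles of 100 kb, the interior of the 5 chromosomes gave 839 tiles. In both libraries 8 of the 10 ends lay below the median tile of their chromosome, and the exceptions were the 2 ends of X. Below the lower quartile of the tiles lay 7 ends in N2 and 4 in the coIP. In the coIP the left end of III was above 1 of 135 tiles, and the right end of IV above 4 of 172. The left end of V was above 96 of 207 there, and the left end of II above 64 of 150. The left end of X, in contrast, was above 137 of 175 tiles in the coIP and 114 of 175 in N2, where its chromosome's median tile held 324 ppm and 181 ppm.

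Against the next 100 kb inward, the coIP signal was lower in all 10 ends. Summed over the ends it was 3696 ppm against 10788 ppm inward, a ratio of 0.335 (0.329 to 0.341) in reads. The N2 signal was 1699 ppm against 5543 ppm, a ratio of 0.281 (0.270 to 0.292), and was lower in 8 of 10 ends. In N2 the left end of II was higher than its inner neighbour (190 ppm against 122 ppm), and the right end of IV had 175 ppm against 153 ppm. The interval of the end over inner ratio included 1 in N2 at the right end of IV (0.995 to 1.37) and at the right end of V (0.767 to 1.20). At the right end of IV it was 0.780 without the highest bins and 0.447 with ends of 200 kb. At 2 ends the inner N2 signal rested on 1 bin. At the right end of X, 1 bin at the microRNA gene mir-63 held 2368 ppm of the inner 2602 ppm, and at the right end of III, 1 bin at mir-46, another microRNA gene, held 574 ppm of 813 ppm. Without the highest bin of each library in each region, the ratio of end to inner was 0.582 in N2 and 0.371 in the coIP. Without the ends of X it was 0.477 and 0.327.

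The direction depended on the region that an end was set against, which moved with the width taken as an end. Within the ends the outer 50 kb held more coIP signal than the 50 kb behind them, 2311 ppm against 1386 ppm, so that with ends of 50 kb the ratio of end to inner turned to 1.70 (1.65 to 1.75) in the coIP. In N2 it was 1.06 (0.994 to 1.14), an interval that includes 1. With ends of 200 kb it was 0.423 and 0.526. The outer 50 kb was the higher one in 6 of 10 ends in the coIP and in 5 of 10 in N2. In reads it was 20.5-fold higher in the coIP at the right end of X, 12.9-fold at the left end of V and 9.48-fold at the right end of III. At the left end of IV the same quotient was 0.066, and at the left end of III 0.262. The ends therefore did not share 1 profile.

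Summed over the 10 ends, the outermost 10 kb had the most coIP signal of the 10 windows of 10 kb, 966 ppm or 26.1% of the signal of the ends. The N2 signal there was 216 ppm. The coIP signal of the following windows was 521, 429, 188 and 206 ppm, then 507 ppm between 50 and 60 kb, and 143 ppm between 90 and 100 kb. The outermost 10 kb fell into 2 kinds of end. Its coIP signal was 126 to 240 ppm at the left ends of II, V and X and the right ends of III and X, and 1.39 to 15.7 ppm at the other five. At both ends of IV and the right end of V it was lower than between 90 and 100 kb, with 2.59 against 4.14 ppm at the left end of IV, 1.39 against 5.51 ppm at its right end and 1.66 against 35.3 ppm at the right end of V. The ratio of coIP over N2 was 4.82 (4.37 to 5.33) in the outermost 10 kb and 1.27 (1.09 to 1.49) between 90 and 100 kb. Farther in, the coIP signal per window ran from 363 ppm between 140 and 150 kb to 2051 ppm between 130 and 140 kb. Between 190 and 200 kb it was 1813 ppm against 167 ppm in N2. Between 120 and 130 kb it was 1437 ppm against 3311 ppm. High coIP signal relative to N2 was therefore not particular to the outermost 10 kb. The terminal bin itself carried little. At the right ends of II, IV and V and the left ends of IV and V it had under 1 coIP read, and the highest was that of the left end of III with 34.6 coIP reads and 8.01 N2 reads. A first bin of at least 10 coIP reads, after rounding to whole reads, lay within 6 kb of the terminus at 7 of the ends. It lay 13 kb, 19 kb and 50 kb inside at the right end of IV, the right end of V and the left end of IV.

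**Figure D2:**
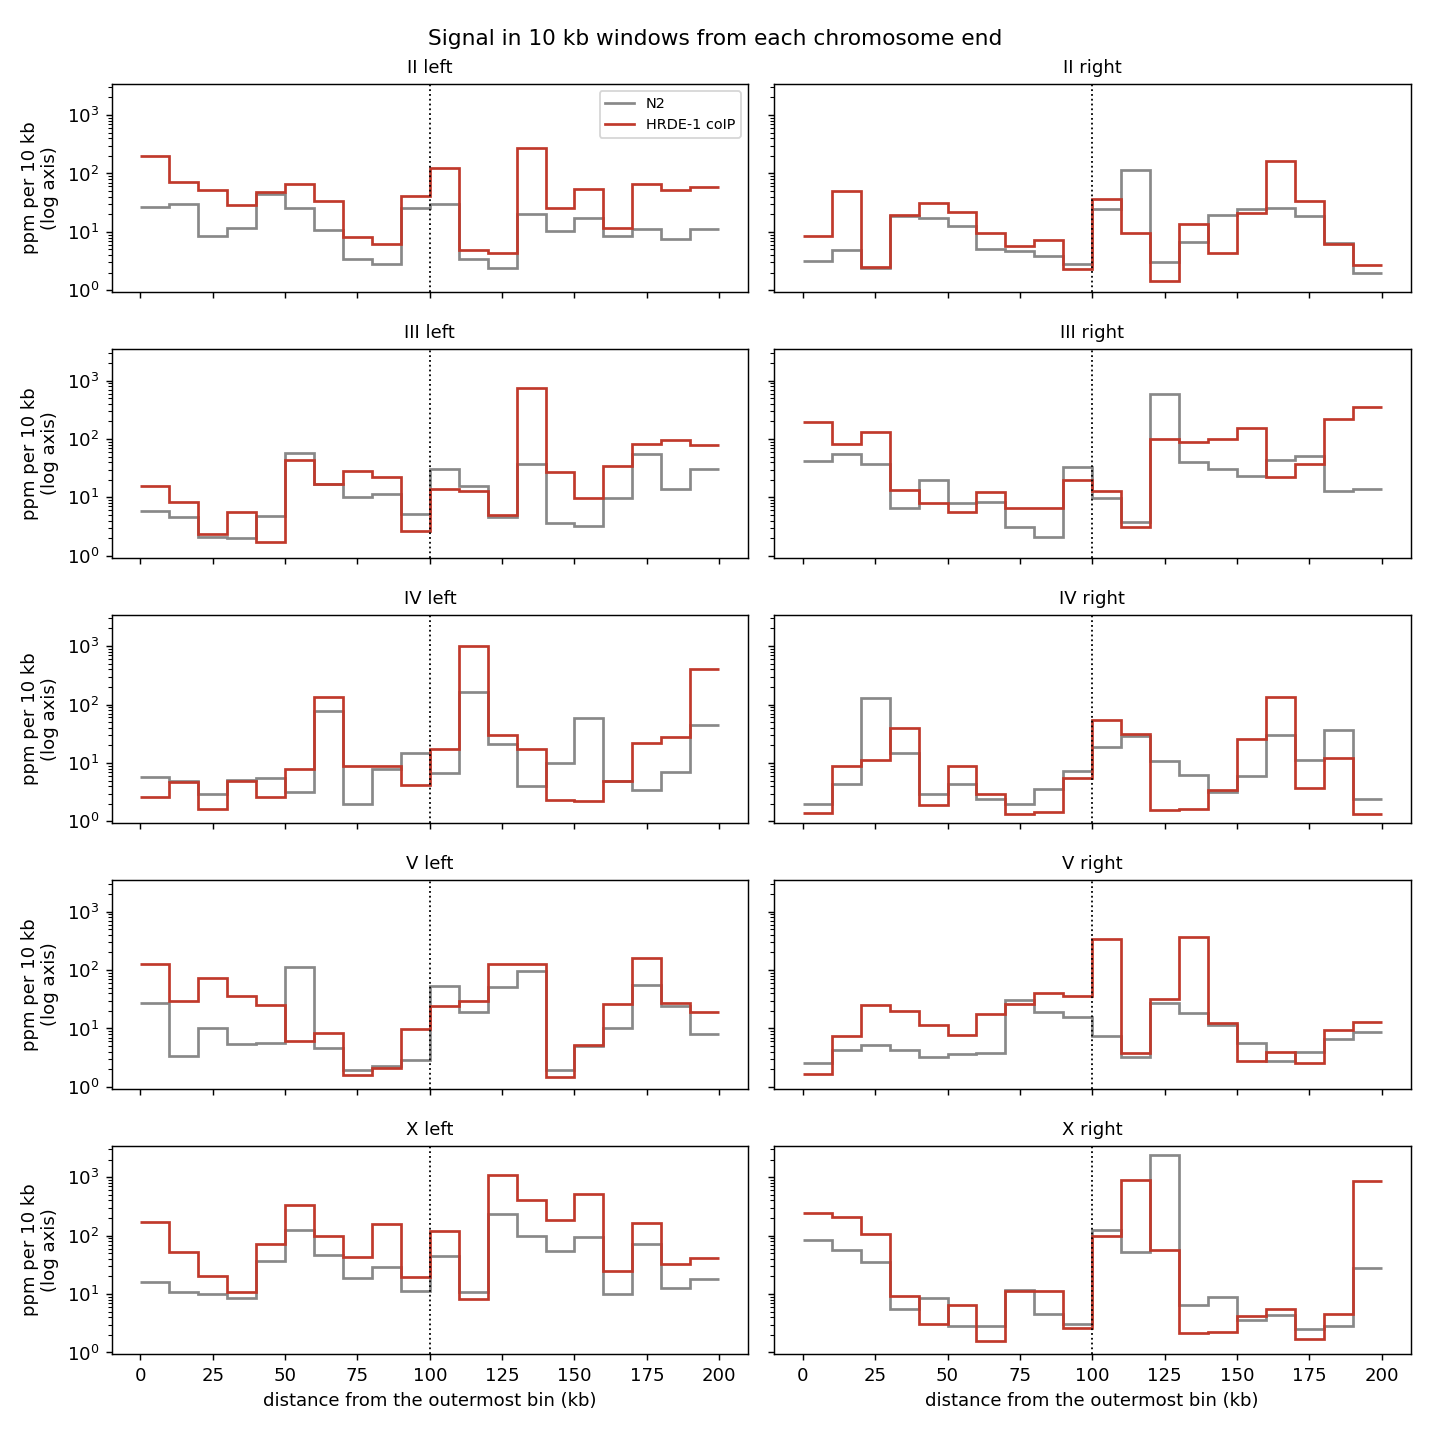
Summed ppm per 10 kb window (log axis) against the distance from the outermost bin in kb, for each end and its inner neighbour, N2 in grey and the coIP in red; the dotted line marks 100 kb. The outermost 30 kb hold 92.4% of the coIP signal of the right end of X and 85.0% at the right end of III, but 5.01% at the left end of IV.

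The ratio of the libraries was 2.36 (2.27 to 2.45) over all ends and 1.98 over the inner regions, but that order turned with the bins taken. Without the highest bin of each library it was 2.52 in the ends and 3.95 in the inner regions, without X 1.98 and 2.88, in bins that held whole numbers of reads 1.60 and 3.15, and with ends of 200 kb 2.06 and 2.57. The ends stayed the higher with ends of 50 kb (2.88 against 1.81 in the next 50 kb) and with the median of ratios (1.42 against 1.19). Without the outermost 10 kb the values were 1.99 and 1.98. The ratio was higher in the end than in its inner neighbour at 4 of the 10. Over all bins of an end the ratio was 3.29 (3.02 to 3.57) at the left end of X, 3.20 (2.87 to 3.57) at the left end of II and 2.98 (2.69 to 3.30) at the right end of X. It was 2.59 (2.14 to 3.17) at the right end of II, 2.46 (2.07 to 2.92) at the right end of V and 2.37 (2.14 to 2.64) at the right end of III. It was 1.96 (1.74 to 2.21) at the left end of V, 1.51 (1.31 to 1.75) at the left end of IV and 1.33 (1.14 to 1.55) at the left end of III. The right end of IV alone was lower in the coIP, at 0.453 (0.390 to 0.528). The order of the ends was not stable. Without the highest bins the left end of V had 5.76, the right end of V 3.30 and the left end of X 3.03, and with ends of 50 kb they had 6.71, 6.05 and 4.39. The values also depend on the total each library is divided by, because a few bins hold a large part of N2. Scaled by the median of ratios the ratio over all ends was 1.42, and with totals that leave out the 10 highest bins 1.46. The left ends of III and IV then fell below 1, to 0.799 and 0.909 with the median of ratios. A whole number of reads was held by 38.7% of the end bins with signal in N2 and by 24.7% of those in the coIP, against 53.9% and 29.9% over all bins. At the left end of X it was 18.6% and 16.5%, and its ratio over whole-read bins was 1.02 (0.281 to 4.47). Fractional reads can come from reads that match several places, and their part in the ratios was not tested beyond this.

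Bin by bin, the share of higher bins in the ends was near that of all bins, and the share of lower bins was smaller. Only bins with a mean over the libraries of at least 0.351 ppm were counted as measured, and log2 ratios were taken after adding 0.121 ppm, which understates the change of low bins. Of 603 measured end bins, 134 (22.2%) had a coIP level at least 4-fold higher, against 19.4% of the 58910 measured bins of the series, and 24 (3.98%) were at least 4-fold lower, against 9.04%. The inner regions had 159 higher and 42 lower among 673. The median log2 ratio was 1.05 in the ends and 1.05 in the inner regions. It was 0.73 (1.66-fold) over all measured bins, and the ratios are to be read against that shift. Higher bins were 84.8% of the calls in the ends under this scaling, but 44.1% with the median of ratios, where 9.95% of the measured bins were called higher in the ends and 9.95% in the whole series, and 12.6% and 19.0% lower. The higher share was below that of all bins with a pseudocount 10 times larger (7.30% against 9.46%) and at 8-fold (7.13% against 7.78%). Of the 134 higher bins, 48 had no N2 read and 104 had fewer than 3. In the authors' deposited table, a p-value at or under 0.05 marked 157 of the 1000 end bins (15.7%) and 208 of the inner ones, against 17.4% of all bins.

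**Figure D3:**
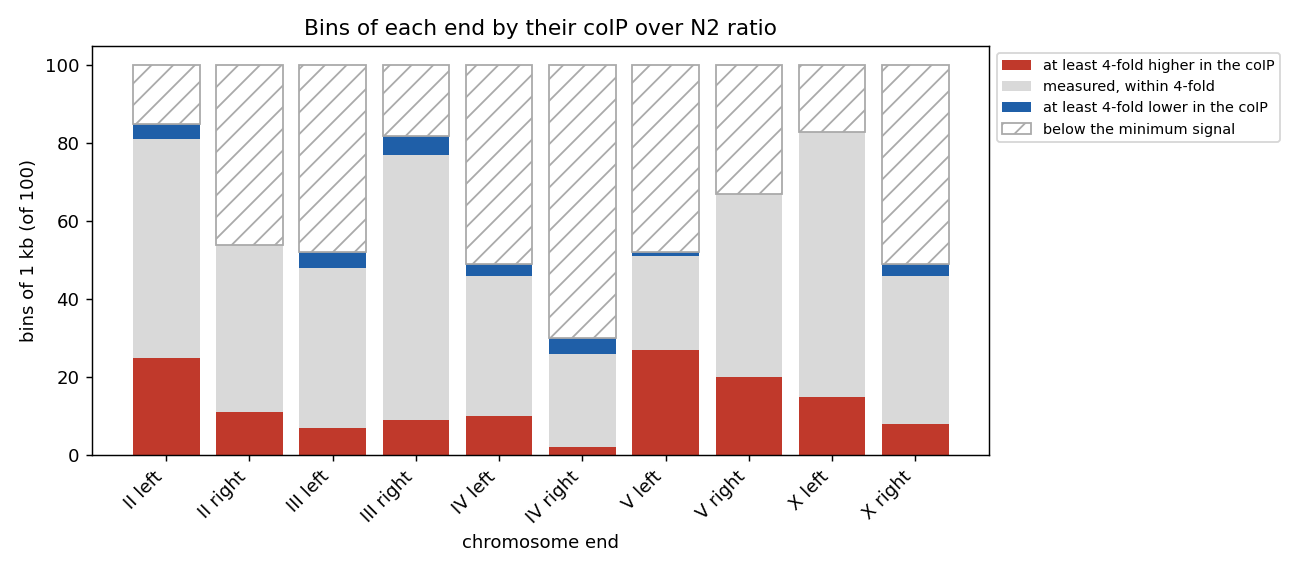
Number of 1 kb bins of each end (of 100) with a coIP level at least 4-fold higher (red), at least 4-fold lower (blue), measured and within 4-fold (grey) or below the minimum signal (hatched). The left end of V has 27 higher bins of 52 measured and the right end of IV 2 of 30.

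The ends differed widely in these counts. The left end of V had 27 higher bins of 52 measured and a median log2 ratio of 2.03, against 0.64 in its inner neighbour. The right end of V had 20 of 67 and a median of 1.46, and the left end of II 25 of 85 and 1.05. At the right end of IV 2 of 30 measured bins were higher and 4 lower, with a median of 0.17. The remaining ends had between 7 and 15 higher bins and medians between 0.59 and 1.04. With gaps of 1 bin bridged the higher bins formed 69 runs, of which 42 were single bins. The 16 runs of at least 3 higher bins held 70 of the 134. The runs and highest bins named below were picked by these same values. Their ratios therefore lean toward the side of the choice, and their intervals leave that out.

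The left end of II had its highest coIP bins close to the terminus. The 5 bins from 1001 to 6000, at the protein-coding gene 2L52.1, had 199 ppm in the coIP against 5.06 ppm in N2, a ratio of 48.3 (25.3 to 106), and held 36.3% of the coIP signal of the end. Bin by bin their coIP levels were 4.00, 2.78, 23.0, 123 and 46.7 ppm, while N2 was at the floor in 3 of them. Of the neighbouring 3 bins from 7001 to 10000, at osta-1, an organic solute transporter subunit gene, and best-4, of the bestrophin channel family, 2 went the other way. The bin between them had no N2 read. The 3 bins together had 21.4 ppm in N2 and 1.16 ppm in the coIP, 26.3-fold lower (9.39 to 98.3). The bin 9001 to 10000 alone held 19.2 ppm of that N2 signal. The highest N2 bin of the end, 16001 to 17000 at best-3, another bestrophin gene, had 19.7 ppm in N2 and 44.4 ppm in the coIP. Farther in, 3 more runs were higher. The bins 18001 to 22000 at gmeb-1 and mir-8186 had a ratio of 7.66 (3.13 to 24.0). The bins 48001 to 52000 at sptl-1, which encodes a serine palmitoyltransferase of sphingolipid synthesis, had 6.97 (3.59 to 15.6). The bins 65001 to 71000 at egl-26, a gene needed for vulval morphogenesis, had 9.96 (3.67 to 36.5). These 3 runs and that at 2L52.1 rested on fewer than 10 N2 reads each.

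The left end of V had the most higher bins of any end and the run that held the most of them. Its highest coIP bin, 6001 to 7000, lay at ife-3, which encodes an eIF4E cap-binding translation factor of the germline, and at idpp-2, with 92.3 ppm in the coIP against 9.72 ppm in N2, a ratio of 9.60 (6.21 to 15.7). The run around it, 5001 to 15000, had 9 higher bins and a ratio of 5.90 (4.49 to 7.92). It was followed by 3 runs that all lay in egl-8, the phospholipase C beta gene that acts in signalling downstream of Gq. Their ratios were 9.05 (5.71 to 15.6) at 20001 to 31000, 15.0 (5.76 to 56.2) at 33001 to 38000 and 7.52 (3.34 to 21.0) at 41001 to 44000. They rested on 18.2, 4.05 and 5.98 N2 reads. Over the 24 bins of egl-8, a span summed after these runs had been seen, the signal was 20.1 ppm in N2 and 134 ppm in the coIP, a ratio of 8.44 (5.96 to 12.3). The coIP level per bin ran from 0.145 to 22.1 ppm with a median of 2.30, N2 from the floor to 2.91 ppm, and 15 of the 22 measured bins were higher. In the rest of the end 12 of 30 were. The N2 signal of the end lay elsewhere, in the single bin 53001 to 54000 within an intron of srt-52, a serpentine receptor gene, with 109 ppm in N2 and 2.35 ppm in the coIP, 49.3-fold lower. That bin held 70.2% of the N2 signal of the end, and without the highest bin of each library the ratio of the end was 5.76 in place of 1.96.

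**Figure D4:**
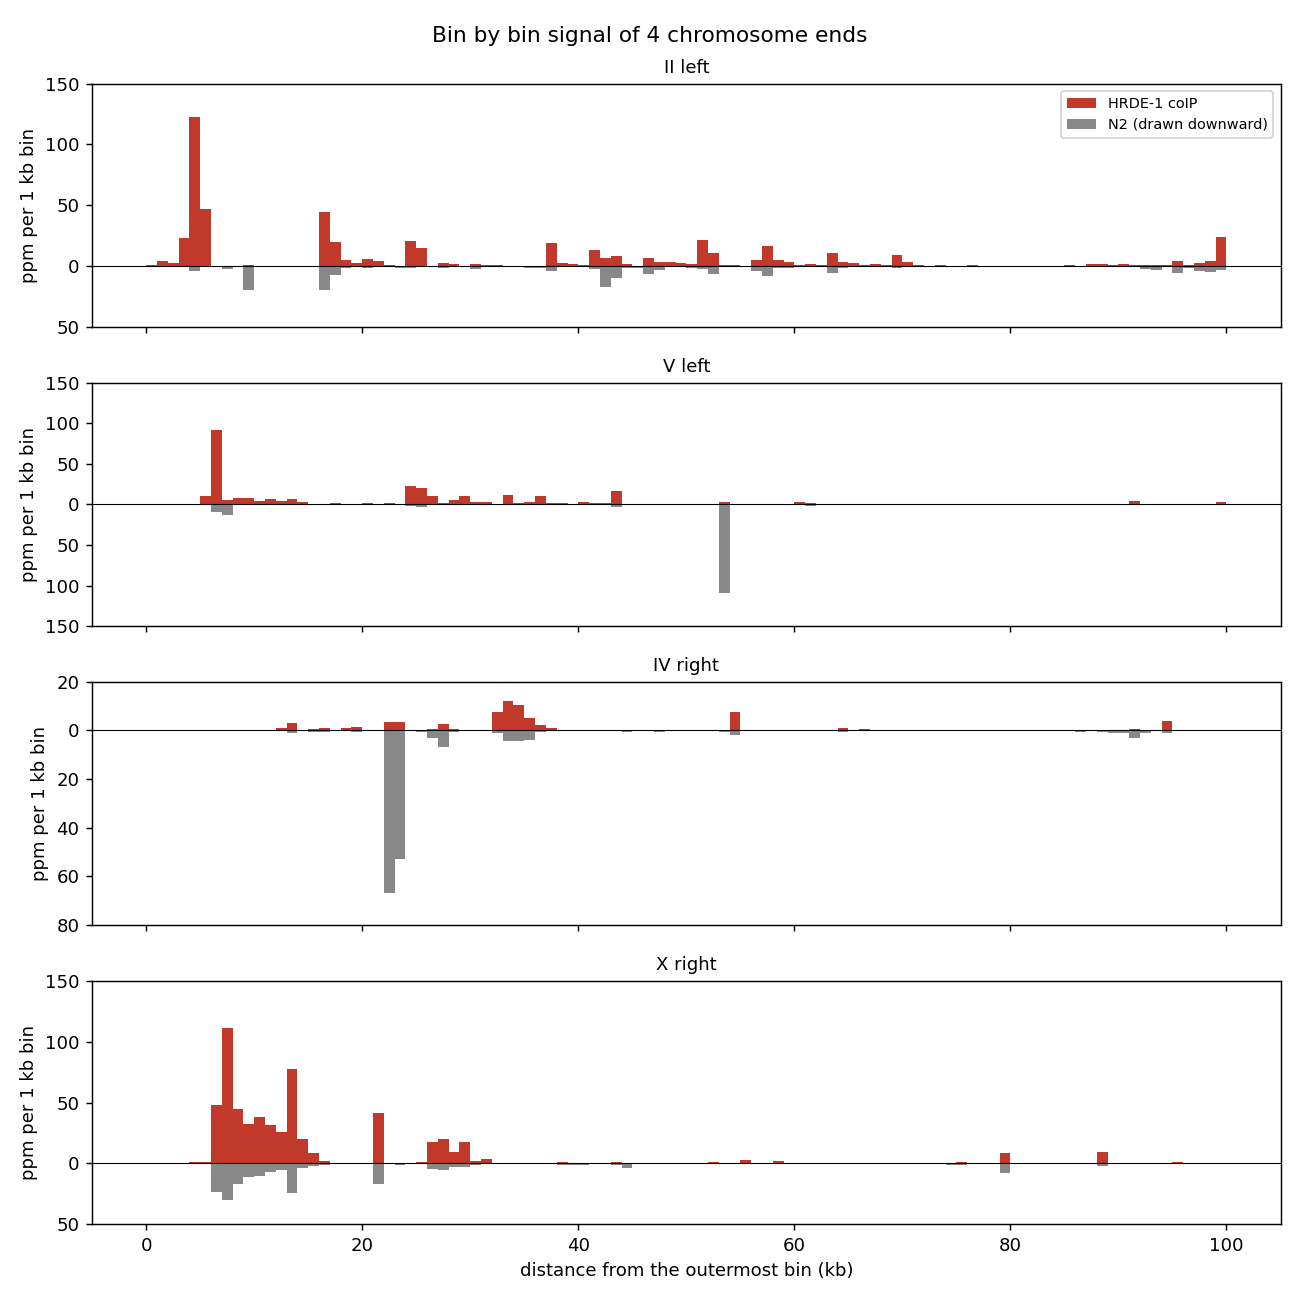
Signal in ppm per 1 kb bin against the distance from the outermost bin in kb for 4 ends, the coIP upward in red and N2 downward in grey; the vertical scales differ. At the left ends of II and V the coIP peaks of 123 and 92.3 ppm lie within 7 kb of the terminus, at the right end of IV a pair of N2 bins of 52.7 and 66.9 ppm has under 4 ppm in the coIP, and at the right end of X both libraries are high together.

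At the right ends of X and III the highest bin was the same in both libraries. At the right end of X the highest bin of both libraries was 17711001 to 17712000, at the protein-coding gene H11L12.1, with 30.1 ppm in N2 and 111 ppm in the coIP, a ratio of 3.68 (2.84 to 4.82). The run 17704001 to 17708000, with no annotated gene, had 41.4 and 155 ppm, a ratio of 3.78 (3.05 to 4.79). At the right end of III the highest bin of both libraries was 13755001 to 13756000, at toca-2, a membrane-shaping F-BAR protein gene, and mlc-7, a myosin light chain gene. It had 16.1 ppm in N2 and 98.1 ppm in the coIP, a ratio of 6.13 (4.34 to 8.90). In the same end the 3 bins 13734001 to 13737000 at W06F12.3 had 36.0 N2 reads and no coIP read, so that by the exact interval the coIP was at least 20.7-fold lower.

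The left end of X was the gene-poor one, with 3 protein-coding genes and 12 pseudogenes annotated, against 7 to 30 protein-coding genes in the other 8 ends that could be matched. Its highest coIP bin, 7001 to 8000, lay at the pseudogenes CE7X_3.1 and CE7X_3.2, with 111 ppm in the coIP against 6.33 ppm in N2, a ratio of 18.0 (10.3 to 32.0). The other named runs lay at pseudogenes too, which are common in this end. Over the 9 matched ends, 12 of 63 measured bins with a pseudogene and no coding exon were higher. With a coding exon 62 of 328 were, outside coding genes and pseudogenes 32 of 104, and in a coding intron only 8 of 41. The bins 18001 to 21000 at Y35H6.3 had 7.73 (4.54 to 14.4), and the bins 87001 to 91000 at Y73B3A.3a and several noncoding RNAs had 14.0 (7.52 to 27.6). The highest N2 bin, 54001 to 55000 in an intron of Y73B3A.20, had 39.2 ppm in N2 and 102 ppm in the coIP, a ratio of 2.59. No bin of this end was at least 4-fold lower in the coIP, and 22 bins had over 10 ppm there, the most of any end.

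Chromosome IV had little signal next to its termini in the coIP. At the left end, the 6 bins 60001 to 66000 at T05C7.7, a protein-coding gene, and the overlapping pseudogene T05C7.6 held 64.4% of the coIP signal, with 108 ppm against 8.77 ppm in N2, a ratio of 14.0 (8.55 to 23.9). The next bin, 66001 to 67000, with a transfer RNA gene, was the highest in N2 with 40.1 ppm and had 18.4 ppm in the coIP, a ratio of 0.455. The 2 bins 89001 to 91000 at scl-23, of the SCP-like secreted proteins, had 31.0 N2 reads and under 1 coIP read, at least 17.7-fold lower by the exact interval. At the right end the 2 bins 17470001 to 17472000, at epic-1 and F11E6.4, held 76.6% of the N2 signal. They had 120 ppm in N2 and 6.80 ppm in the coIP, 18.3-fold lower (12.7 to 27.4). A smaller pair, 17402001 to 17404000 at pmp-4, a peroxisomal transporter gene, and T02D1.4, was 8.59-fold lower (1.78 to 86.4) on 7.97 N2 and 2.07 coIP reads. The highest coIP bin of that end, 17460001 to 17461000 at rif-1.1, a relative of the telomere and replication timing factor Rif1, had 12.2 ppm in the coIP against 4.28 ppm in N2, a ratio of 2.93 (1.44 to 6.73). Without the highest bin of each library the ratio of the right end of IV was 0.653.

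On the right of II the bin 15263001 to 15264000, at the noncoding RNA gene Y46E12BL.9, had 35.7 ppm in the coIP against 2.01 ppm in N2, and the run 15261001 to 15265000 had a ratio of 17.6 (7.81 to 57.6) on 5.25 N2 reads. Its highest N2 bin, 15242001 to 15243000 at Y46E12BL.2, had 8.36 ppm against 5.23 ppm in the coIP. At the left end of III the pseudogene W05G11.2, at 58001 to 59000, gave the highest bin of both libraries, and it was the higher in N2, with 45.9 ppm against 19.8 ppm, a ratio of 0.428 (0.318 to 0.568). Without the highest bins the ratio of that end was 2.07. On the right of V the highest coIP bin, 20827001 to 20828000, had 15.5 ppm against 6.09 ppm in N2. The highest N2 bin, 20842001 to 20843000, had 21.1 ppm and a ratio of 0.564. The run 20849001 to 20855000 had a ratio of 10.1 (3.80 to 37.7) on 4.00 N2 reads.

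By annotation, 489 bins of the 9 matched ends, 54.3% of their bins, held a protein-coding exon. These bins had 53.9% of the coIP reads of those ends and 55.2% of the N2 reads, near their share of the bins. Bins with a pseudogene and no coding exon numbered 76, of which 66 lay on X. Bins outside protein-coding genes and pseudogenes numbered 231, and those in an intron only 104.

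None of the 1000 end bins carried the authors' marks GRTS or GRH, which in published work on HRDE-1 stand for loci of germline nuclear RNAi-mediated transcriptional silencing and heterochromatin, and none of the 1000 inner bins did. The marks are rare, with 381 marked bins among all 100257, of which 305 lie on these 5 chromosomes. Few would therefore fall in any 1000 bins. The mark nearest to any end lay 214 kb from the left end of X, the next 277 kb from the right end of II and 320 kb from the left end of V. The way they were assigned is not given.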

How the data were processed

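The authors deposited the small RNA signal as coverage per 1 kb bin, 1 column per library, with a floor of 0.1 in every bin. Reads were aligned with Bowtie 0.12.7, per the submitters' processing notes. For the build, the read filters, reads with several sites and the scaling, the answer is not given in the sources used here. By its values, 1 read was worth 0.232 in N2 and 0.169 in the coIP. The authors' deposited p-value per bin has an unstated method and was only counted.

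Each column was scaled to 1000000. Read equivalents are the coverage minus the floor, divided by the value of 1 read. They are not counts, so no count test was run. The intervals treat them, once rounded, as if they were counts, and make no allowance for fractional reads. Higher and lower mean at least 4-fold among bins of at least 0.351 ppm on average, with a pseudocount of 0.121 ppm. Named regions are the highest bin of each library in each end, the 15 runs of at least 3 higher bins with the most coIP signal and the 5 runs of at least 2 lower bins with the most N2 signal. The ends and the rules were chosen with earlier results of these data known. Interval and call code was tested on simulated data. Python 3.11.15, numpy 2.4.6, pandas 2.3.3 and scipy 1.17.1 were used. Alternatives covered the scaling, the width of an end, the minimum, the pseudocount, the fold, the floor, the highest bins and the outermost 10 kb. They also covered bins with whole reads and, added after seeing the data, the ends without X. Whole reads meant coverage within 0.0055 coverage units of a whole multiple of the value of 1 read. Sequences were not printed.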

Additional observations from a re-analysis of the deposited data

How the results depend on the processing

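No paired analysis was possible because there is only 1 library per group, so that no replicate could be left out either. Over all ends the ratio of coIP over N2 (2.36) was 1.42 with the median of ratios, 1.46 with sums without the 10 highest bins, 2.88 with ends of 50 kb, 2.06 with 200 kb, 2.52 without the highest bins, 1.99 without the outermost 10 kb, 2.18 with the floor kept, 1.60 in whole-read bins and 1.98 without X. With other widths the inner region moved too, to the next 50 or 200 kb. End over inner in N2 (0.281) was 1.06 with 50 kb, 0.526 with 200 kb, 0.582 without the highest bins, 0.307 with the floor kept and 0.477 without X. In the coIP (0.335) it was 1.70, 0.423, 0.371, 0.343 and 0.327 in the same order, and 0.273 without the outermost 10 kb. The mean N2 level per bin (1.70 ppm) was 2.86 ppm with sums without the 10 highest bins, 3.62 ppm with 200 kb, 1.29 ppm without the highest bins, 1.53 ppm with the floor subtracted and 1.47 ppm without X. The coIP level (3.70 ppm) was 3.90, 7.24, 2.90, 3.62 and 2.65 ppm in the same order, 4.62 ppm with 50 kb and 3.03 ppm without the outermost 10 kb.

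Higher and lower bins (134 and 24) were 60 and 76 with the median of ratios, 76 and 70 with sums without the 10 highest bins, 51 and 7 at 10 times the minimum, 44 and 7 with a pseudocount 10 times larger, 316 and 85 at 2-fold and 43 and 13 at 8-fold, and 53 bins were lower with a pseudocount 10 times smaller. The median log2 ratio (1.05) was 0.32, 0.42, 1.51 and 0.47 under the first 4 of these, 1.23 with the smaller pseudocount and 0.18 with no minimum.

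Of 279 values for single ends and regions under an alternative, 137 stayed within their counting interval, 119 moved further and 23 changed direction. The named regions, run under the 2 other scalings and with the floor kept alone, gave none of the 23. Ratios that crossed 1 were those of the left ends of III and IV with the median of ratios (0.799, 0.909), likewise with sums without the 10 highest bins (0.819, 0.932), the left end of IV with 50 kb (0.711), the right ends of IV and X with 200 kb (1.12 and 0.886), and, in whole-read bins, the right end of III (0.813), the left end of IV (0.449) and the right end of IV (1.24). End over inner turned with 50 kb in the coIP at II left (2.65), II right (2.60), III right (9.48), IV right (4.03), V left (12.9) and X right (20.5), and in N2 at II right (1.90), III right (3.41) and X right (11.5). With 200 kb it turned in N2 at II left (0.573) and X right (18.9), and in the coIP at IV left (2.50) and X right (5.56). Not counted in the 23, because the interval of the main value included 1, N2 crossed 1 at IV right (1.17) with 200 kb (0.447) and without the highest bins (0.780), and at V right (0.957) without the outermost 10 kb (1.06). The cause was not tested. Depth limits N2 most, with 3316 reads in 1000 bins.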
